A study of Mus musculus with 118 samples.

Results

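The Kv1 and Kv2 potassium channel genes were followed in single SOM+ interneurons of the mouse neocortex. They are 8 of the 23998 gene symbols of the count table, taken by name with no measured value in the rule, namely *Kcna1*, *Kcna2*, *Kcna3*, *Kcna4* and *Kcna6*, which encode pore-forming Kv1 subunits, *Kcnab1* and *Kcnab2*, which encode the beta subunits that bind them inside the cell, and *Kcnb2*, which encodes a Kv2 pore. The cells came from SOM-Cre/Ai9 mice, whose SOM-Cre allele switches on tdTomato of the Ai9 reporter in cells with a present or past expression of somatostatin, and lay in layer 4 (L4) or layer 5 (L5) of the primary visual (V1) or primary somatosensory (S1) cortex. All groups carried the same alleles, no treatment or age is labelled. Tissue labels name only the neocortex. RNA was read by Patch-seq, which sequences the cytosol taken up through the patch pipette once a cell has been recorded.

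The filters kept 42 of 44 cells from V1 L4 and 34 of 39 from S1 L4. From L5 they kept 17 of 19 cells of V1 and 16 of 16 of S1. The kept cells had at least 1500 genes with a read, no more *Slc17a7* than *Gad1* plus *Gad2* reads, and at least 1 *Sst* read. Their total counts ranged from 97904 to 3295232, with a median of 1111833, and 1978 to 9200 genes were read per cell. All 9 markers on the list for SOM interneurons were read in each of the 4 groups, and the 6 markers on the list for excitatory neurons summed to at most 16.5 CPM, counts scaled to a common library size, pooled over the cells of a group. Because the labels name no animal and cells are not replicates, the cells of 1 area in 1 layer count as a single sample, and no test was run. The spread given for a difference is the SD over recording days, taken from the dates in the labels, and days need not be separate animals.

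Kv1 channels open near the threshold of the action potential and are assembled from 4 pore subunits, often of different kinds, with beta subunits attached on the inner side. In many neurons they are concentrated in axons and at the axon initial segment, where they set the threshold and limit repeated firing. Kv2 channels are delayed rectifiers of the cell body and proximal dendrites that help the membrane recover between spikes. RNA levels do not show where in the cell a channel sits.

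The pore genes resemble each other, so the coding stretch round the selectivity filter, the part of the pore that lets potassium through, is shown for each of the 6 pore genes to let a reader see how far the paralogs can be told apart by their reads. Each stretch has 45 bases on the coding strand, from 5′ to 3′, read from the GRCm38 genome, and capitals mark the 18 bases that encode the filter.
*Kcna1*: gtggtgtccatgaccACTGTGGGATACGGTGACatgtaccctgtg
*Kcna2*: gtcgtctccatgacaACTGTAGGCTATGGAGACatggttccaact
*Kcna3*: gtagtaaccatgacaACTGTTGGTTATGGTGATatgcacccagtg
*Kcna6*: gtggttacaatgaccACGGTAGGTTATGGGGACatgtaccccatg
*Kcna4*: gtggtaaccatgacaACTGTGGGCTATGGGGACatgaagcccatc
*Kcnb2*: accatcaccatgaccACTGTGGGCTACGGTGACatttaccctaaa
All 6 encode the same filter residues, but 1 to 5 of the 18 capitals differ from *Kcna1*, and over the whole stretch 10 to 14 of 45 bases do. The stretches lie in exons at chr6:126642213-126642257 on the minus strand for *Kcna1*, chr3:107105209-107105253 on the plus strand for *Kcna2*, chr3:107037596-107037640 on the plus strand for *Kcna3*, chr6:126738632-126738676 on the minus strand for *Kcna6*, chr2:107296480-107296524 on the plus strand for *Kcna4* and chr1:15710031-15710075 on the plus strand for *Kcnb2*. *Kcna1* and *Kcna6* are neighbours, 61944 bases apart on chromosome 6, and *Kcna3* and *Kcna2* are 63075 bases apart on chromosome 3.

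Over all annotated transcripts, no stretch of 75 bases, the read length, was shared between any 2 of the 8 genes. Stretches shared with other genes were rare for *Kcna2* (4 of 11831), *Kcnab1* (20 of 8581) and *Kcnab2* (51 of 5806), and *Kcna1*, *Kcna3*, *Kcna4* and *Kcnb2* had none. In *Kcna6*, 2284 of 5945 stretches, or 38.4%, also occur in the annotated gene Gm26673 on the opposite strand, and 29 of them in *Kcna5*. The protocol does not mark the strand as far as the study describes it, so reads of *Kcna6* and of an overlapping RNA on the other strand cannot be told apart there, and the same holds for the end of *Kcnab1* that overlaps A330015K06Rik.

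Reads of 6 of the 8 genes were found in most SOM+ cells, and reads of *Kcna4* and *Kcnb2* in few. *Kcna1*, a Kv1 subunit abundant in many axons, was read in 96 cells (88.1%), *Kcna6* in 94, *Kcna3* in 92, *Kcnab2* in 88, *Kcna2* in 83 and *Kcnab1* in 78. *Kcna4*, whose channels inactivate quickly, was read in 20 cells, or 18.3% (95% Clopper-Pearson interval 11.6 to 26.9%), and *Kcnb2* in 18 cells, or 16.5% (10.1 to 24.8%). After every cell was thinned to 250000 reads, which left out 3 shallower cells, *Kcna1* was read in 85.8% of cells and *Kcna4* in 15.1%. These intervals treat the cells as independent draws and do not cover the spread between animals or recording days. The reads carry no molecular identifiers.

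Between genes, levels were compared as log2(RPKM + 1), which is per transcript length. Averaged over all kept cells, *Kcna3* had the highest mean level at 5.03 (SD over cells 2.63), followed by *Kcnab1* at 4.31, *Kcna1* at 4.14, *Kcnab2* at 3.78 and *Kcna6* at 3.52. *Kcna2* came next at 2.27, and *Kcnb2* (0.56) and *Kcna4* (0.53) were lowest. Between adjacent ranks, only the steps from *Kcna6* to *Kcna2* (1.26, SD over 9 days 0.59, the same way in 8 days) and from *Kcna2* to *Kcnb2* (1.71, SD 0.74, in all 9 days) were larger than their spread. Each adjacent step among the first 5 genes, and that between the last 2, stayed within it. Genes further apart in the order were not compared over days. The first place changed with the group. *Kcna3* was first in V1 L4 (5.13) and S1 L5 (4.85), *Kcna1* was first in S1 L4 (5.12), and *Kcnab1* was first in V1 L5 (5.72), but in none of the 4 groups did the first and second gene differ by more than the SD over days. *Kcna2* was the sixth in all 4 groups. Within V1 L5, *Kcna3* lay above *Kcnab2* by 1.26 (SD 0.30, 4 of 4 days).

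**Figure D1:**
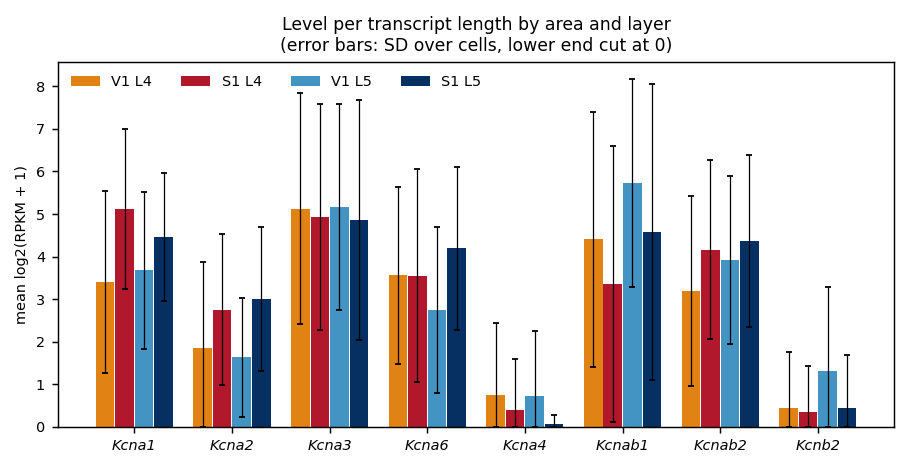
Mean log2(RPKM + 1), a level per transcript length, of the 8 genes in the 4 groups of kept cells (bars), with the SD over cells as error bars cut at 0. *Kcna3* lies between 4.85 and 5.17 in every group, while *Kcna4* and *Kcnb2* reach at most 1.32.

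Within each gene, levels are given as log2(CPM + 1) from the counts. *Kcna1* ranged from 0 over a median of 7.40 to 9.82 among V1 L4 cells, from 0 over 8.91 to 10.04 among S1 L4 cells, from 0 over 7.16 to 8.57 in V1 L5 and from 0 over 7.66 to 10.26 in S1 L5. Its S1 L4 cells were thus highest in the median, but all 4 groups overlapped.

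*Kcna2*, a partner of *Kcna1* in axonal channels, ranged from 0 over 3.55 to 11.21 in V1 L4, from 0 over 6.33 to 10.02 in S1 L4, from 0 over 4.08 to 7.20 in V1 L5 and from 0 over 6.62 to 8.49 in S1 L5. The medians of both S1 groups lay above those of both V1 groups. In V1 L4, where 25 of 42 cells had a *Kcna2* read, 1 cell held 24.7% of all *Kcna2* reads, and the pooled level of 97.9 CPM was 74.4 CPM without it.

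*Kcna3* is best known from lymphocytes but is also expressed in neurons. Its medians in L4 were 6.86 (V1) and 6.83 (S1) and those in L5 6.76 (V1) and 6.80 (S1), and its highest cells lay at 9.36, 8.49, 9.32 and 9.53 in the same order. *Kcna6*, another Kv1 pore subunit of axons, had medians of 6.56, 7.31, 5.03 and 6.92, with highest cells at 9.77, 9.77, 8.13 and 9.21. Both genes had cells at 0 in all 4 groups.

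*Kcna4* was read in 10 of 42 L4 cells of V1 and 4 of 34 of S1, and in L5 in 5 of 17 cells of V1 and 1 of 16 of S1, and its highest cells were at 8.01, 7.47, 6.90 and 2.30. In S1 L5 the gene rested on 5 reads in a single cell. *Kcnb2* was read in 6 of 42, 4 of 34, 6 of 17 and 2 of 16 cells, with highest cells at 7.71, 6.76, 7.32 and 6.19.

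The beta subunits are enzymes of the aldo-keto reductase fold that dock onto Kv1 channels, and the product of *Kcnab1* can make them inactivate quickly. *Kcnab1* had both cells at 0 and cells at high levels in every group, ranging from 0 over 7.01 to 10.09 in V1 L4, from 0 over 5.19 to 10.71 in S1 L4, from 0 over 8.07 to 9.89 in V1 L5 and from 0 over 8.30 to 9.42 in S1 L5. It was read in 32 of 42, 20 of 34, 15 of 17 and 11 of 16 cells. *Kcnab2* had medians of 5.90, 6.66, 6.38 and 6.84 and highest cells at 7.72, 8.35, 7.99 and 8.08, and it was read in 30 of 42, 29 of 34, 14 of 17 and 15 of 16 cells. At least 1 of the 2 beta genes was read in 100 kept cells and both in 66.

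**Figure D2:**
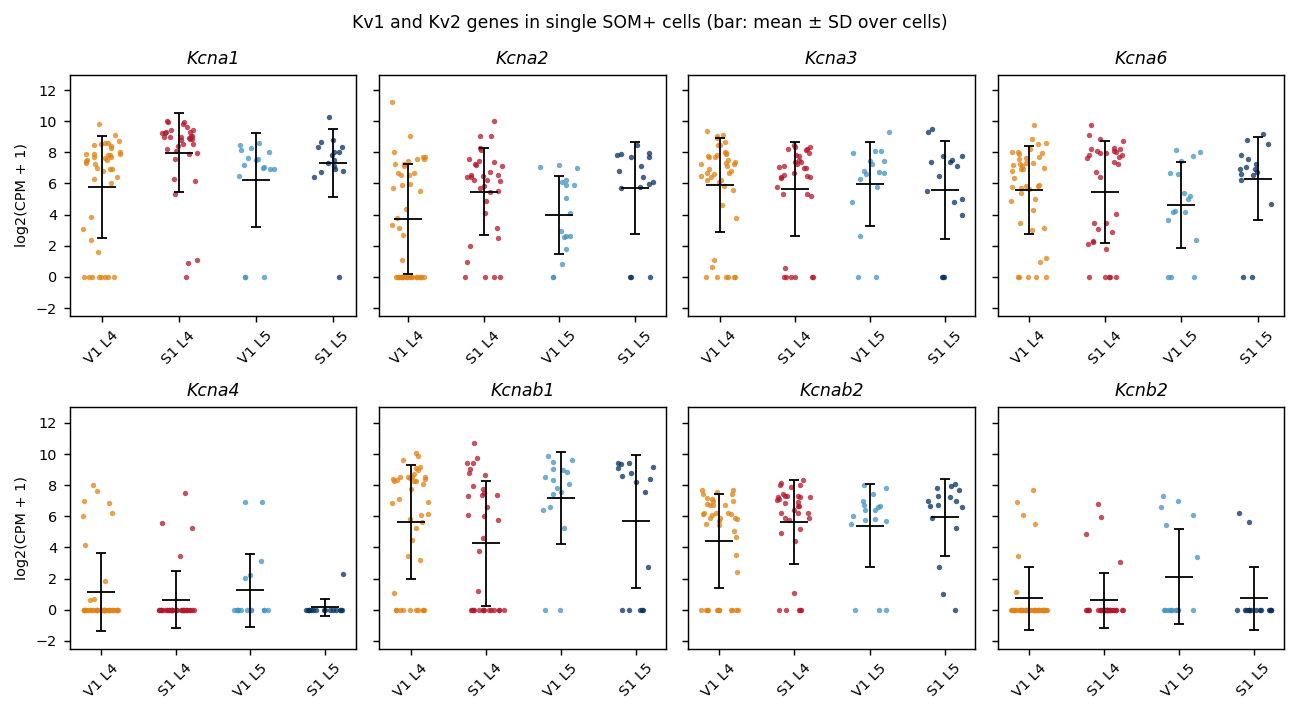
Level of each gene in every kept cell (points) as log2(CPM + 1), by area and layer, with the mean and SD over cells as black bars. Points at 0 are cells with no read, and *Kcna4* and *Kcnb2* are at 0 in most cells of all 4 groups.

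Cells often carried several Kv1 genes at once. All 4 of *Kcna1*, *Kcna2*, *Kcna3* and *Kcna6* were read in 61 cells, or 56.0%, made up of 17 of 42 L4 cells of V1, 23 of 34 of S1, and in L5 11 of 17 cells of V1 and 10 of 16 of S1, and 2 cells had none of the Kv1 pore genes. The median cell had reads of 5 of the 8 genes. Each of the 20 cells with a *Kcna4* read also had *Kcnab1* reads, against 58 of the 89 cells without *Kcna4*, and after thinning the counts were 16 of 16 and 60 of 90. This pair is 1 of 28, and the other common genes were also read in most of the 20 cells. *Kcna1*, *Kcna3*, *Kcna6*, *Kcna2* and *Kcnab2* were read in 19, 19, 19, 18 and 17 of them. Among the 89 cells without *Kcna4* they were read in 77, 73, 75, 65 and 71. Likewise, all 18 cells with a *Kcnb2* read had *Kcna1* reads, but so had 78 of the other 91.

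Differences between groups were called by a rule of size, since no test was possible. A gene was called where the mean log2(CPM + 1) differed by at least 1 and the difference had the same sign in each recording day with at least 2 cells of both groups. Only genes with at least 32 counts in at least 10 of the compared cells were considered, and *Kcna4* and *Kcnb2* did not reach this in any of the 4 comparisons, which left 6 of the 8 genes. Each comparison called 1 of these 6 genes. The comparisons share cells, so their values are not independent of each other.

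The comparison of S1 with V1 in L4 asks how SOM+ cells differ between areas in the layer the study is about. There *Kcna2* was higher in S1, with a mean of 5.48 against 3.71, a difference of 1.77 (SD over 5 days 1.31). The day differences were 2.19, 0.92, 2.11, 2.62 and 4.53, all above 0, and 30 of 34 S1 cells against 25 of 42 V1 cells had a read. By this rule 3.2% of the 9201 genes considered were called. In the first recording series alone the difference was 0.32 and in the second 3.08, and with pooled CPM it was 0.35. With RPKM (0.89) and with a pseudocount of 10 (0.91) it also missed the size of 1.

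*Kcna1* differed more in the mean, 7.97 in S1 against 5.79 in V1, a difference of 2.18 (SD 1.63). It was not called, because 1 of 5 days went the other way, the day differences being 1.35, 0.19, 1.89, 2.28 and -1.75. Averaged within days the difference was 0.79. *Kcna1* was called with pooled CPM (1.40, 5 of 5 days), among cells with at least 4000 genes (2.70, 4 of 4 days), in the first series alone (2.68, 3 of 3 days) and without the eighth recording day (2.66, 4 of 4 days). V1 L4 cells of the first 2 days had mean levels of 2.64 (3 cells) and 5.18 (11 cells), while S1 L4 cells of the ninth day, with no V1 cell beside them, were at 8.59 (7 cells).

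For the remaining genes the areas in L4 differed by less than the spread over days. *Kcnab1* was lower in S1 (4.27 against 5.61, difference -1.35, SD 2.31) in 4 of 5 days and *Kcnab2* higher (5.62 against 4.43, difference 1.19, SD 1.84) in 3 of 5 days. *Kcna3* differed by -0.25 (SD 2.53) and *Kcna6* by -0.14 (SD 2.94). The *Kcna3* day differences ran from -3.09 to 3.16 and those of *Kcna6* from -3.62 to 4.09.

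Oligodendrocyte markers moved with the area. Pooled over L4 cells their list of 8 genes was at 1118 CPM in S1 and 270 CPM in V1, where *Mag* and *Cldn11* were at 0, and per cell it ranged from 0 to 9702 CPM in S1 and from 0 to 3717 CPM in V1. Across cells with group means subtracted, *Kcna2* and the list had r = -0.07 and *Kcna1* and the list r = 0.05. In L5 the list was at 734 CPM in S1 and 239 CPM in V1. S1 cells also had more genes with a read than V1 cells, with medians of 6649 and 5960 in L4 and 7572 and 6765 in L5. With the number of genes read, *Kcna1* had r = 0.35 and *Kcna2* r = 0.26. The part of these marker reads and of the number of genes read in the area differences was not tested.

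Between S1 and V1 in L5 the called gene was *Kcnab1*, lower in S1 with a mean of 5.67 against 7.16, a difference of -1.50 (SD over 4 days 1.08). All 4 day differences were below 0, at -0.67, -1.70, -1.56 and -3.27, and the gene was read in 11 of 16 S1 and 15 of 17 V1 cells. Here 12.7% of 6402 genes were called, and 1 of 6 channel genes is near this background. Pooled over cells, *Kcnab1* was at 385 CPM in S1 and 388 CPM in V1, a log2 ratio of -0.01, and on that scale, as with a pseudocount of 10 (-0.81), it missed the size of 1. After thinning the difference kept its size (-1.49) but had its sign in 3 of 4 days, so the gene was not called. *Kcna2* was again higher in S1 (5.72 against 4.00, difference 1.72), but by less than its SD of 2.63 and in 3 of 4 days. It was called with pooled CPM (1.13, 4 of 4 days), beside 5.64% of all genes. Without the fourth recording day it was also called (2.98, 3 of 3 days), beside 21.6% of all genes.

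*Kcna6* in L5 was at 6.32 in S1 and 4.64 in V1, a difference of 1.68 with an SD of 3.52 and day differences from -2.22 to 5.02. *Kcna1* differed by 1.10 (SD 1.59), with day differences of -0.95, 0.00, 2.33 and 2.02, and was called without the third recording day (1.55). *Kcnab2* (0.53, SD 1.74) and *Kcna3* (-0.40, SD 2.32) stayed within their spread.

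Comparing L5 with L4 was possible in the first series only, which holds all L5 cells. In V1, *Kcnab2* was called as higher in L5, with a mean of 3.98 in L4 and a difference of 1.42 (SD 1.41) with day differences of 2.52 and 0.52. Over these 2 days 18.5% of 6696 genes were called, a share near that of 1 in 6. The *Kcna1* difference in V1 changed sign with the way of averaging. Over all cells it was 0.81 (6.22 in L5, 5.41 in L4), but within the 2 days that hold both layers it was -1.94 and -1.62, and their mean of -1.78 met the size rule, as did 40.3% of all genes when averaged that way.

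The *Kcna3* level in V1 L4 was 4.90 and that in V1 L5 higher by 1.10 (SD 0.75), a difference that had this sign in 1 of 2 days. *Kcnab1* (difference 1.07, SD 1.21) and *Kcna6* (difference -1.15, SD 2.23) also had their sign in 1 of 2 days, and *Kcna2* differed by 0.13 (SD 0.32). *Kcnb2*, which did not pass the filter, was read in 6 of 17 L5 cells and 2 of 21 L4 cells, with day differences of 1.45 and -1.15.

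In S1 the called gene was *Kcnab1*, at 5.67 in L5 and 4.60 in L4, a difference of 1.07 with day differences of 1.33, 5.44 and 1.49. The difference was smaller than its SD of 2.33 over days. In this comparison 15.1% of 6492 genes were called. Without the fourth recording day the difference over all cells was -0.23, although the day differences that remained, 1.33 and 1.49, were above 0. The difference over all cells also takes in days that did not hold at least 2 cells of both layers. It was 0.91 without the third day, 0.55 with the cells that lacked an *Sst* read and 0.50 with pooled CPM. *Kcna1* was lower in L5 in all 3 days, with day differences of -3.07, -1.77 and -1.18, and the difference over all cells was -0.78 (7.32 against 8.10), which missed the size of 1. *Kcna3* also lay lower in L5 in all 3 days (-4.58, -0.83 and -0.97) and differed by -0.30 over all cells. Averaged within days, an alternative chosen after seeing the data, *Kcna1* (-2.01) and *Kcna3* (-2.13) were both called, beside 21.6% of all genes. *Kcna1* was also called with pooled CPM (-1.31), with at least 4000 genes per cell (-1.51), with the cells that lacked an *Sst* read (-1.02) and without the second recording day (-1.30), and *Kcna3* without the second day (-1.67). *Kcna2* (1.53, SD 2.06), *Kcnab2* (1.13, SD 2.21) and *Kcna6* (0.60, SD 1.90) were higher in L5 in 2 of 3 days. The kept L5 cells also had more genes with a read, with medians of 6765 in V1 L5 and 7572 in S1 L5 against 5960 in V1 L4 and 6649 in S1 L4 over all days, and the part of this in the layer differences was not tested. With cells thinned to 250000 reads the *Kcnab2* difference in V1 was 1.81, and with pooled CPM (0.64) and a pseudocount of 10 (0.76) it missed the size of 1.

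**Figure D3:**
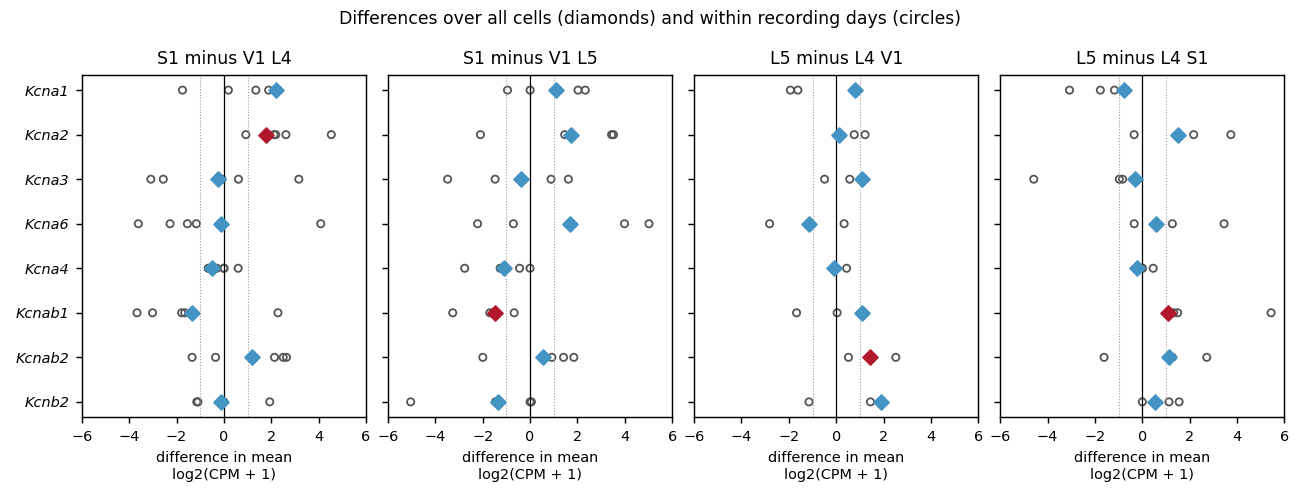
Difference in mean log2(CPM + 1) of each gene in the 4 comparisons, over all cells (diamonds, red where called by the size rule and blue elsewhere) and within each recording day that holds both groups (circles); dotted lines mark -1 and 1. Circles spread over several units for most genes, and the *Kcna1* circles in L5 minus L4 V1 lie below 0 while its diamond is at 0.81.

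Other parts of the same channels were read in the same cells. *Kcnab3*, the remaining beta subunit, was read in 85 cells, while the Kv1 pore genes *Kcna5* and *Kcna10* were read in 2 and 4 cells and *Kcna7* in none. Of the 10 silent subunits, which form no channel of their own but join Kv2 pores, *Kcnf1* was read in 83 cells and *Kcns3* in 56, and each of the other 8 in at most 5. *Kcns3* was called between areas in L4, with 4.05 in S1 and 2.53 in V1 (difference 1.52, SD 2.64, 5 of 5 days), beside 3.2% of all genes.

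*Kcnab3* was called between areas in L5, where it was higher in S1 (5.89 against 3.56, difference 2.33, SD 1.79, 4 of 4 days), beside 12.7% of all genes. *Amigo1*, a membrane protein that rides with Kv2 channels, was lower in L5 than L4 in V1 (difference -1.06, SD 2.07, 2 of 2 days). In S1 it was higher in L5 (2.48, SD 2.22, 3 of 3 days). It was the only gene called among the 3 Kv2 partners, beside 18.5% of all genes between layers in V1 and 15.1% in S1.

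The list of axonal Kv1 partners held 11 genes of the table, and *Epb41l3* was not analysed here. *Cntnap2*, which encodes Caspr2 and holds Kv1 channels beside the node, was called in L4, at 7.54 in S1 and 5.90 in V1 (difference 1.64, SD 2.19, 5 of 5 days). It was also called between layers in V1 (2.68, SD 2.70, 2 of 2 days), beside 18.5% of all genes. *Lgi3* was higher in S1 L4 (5.30 against 2.91, difference 2.39, SD 2.03) and *Lgi1*, a secreted partner of the Kv1 complex, was lower (2.60 against 3.65, difference -1.05, SD 0.85), each in 5 of 5 days. In all, 3 of the 10 axonal partners considered were called between areas in L4, beside 3.2% of all genes, and none of 8 in L5. The median difference of these 10 genes was -0.33, and that of all genes 0.01.

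Across cells, the 8 genes varied together only weakly. With group means subtracted, the 28 pairs had a median Pearson r of 0.13, from -0.12 for *Kcna2* and *Kcna3* to 0.35 for *Kcna2* and *Kcnab2*, and 25 of 28 were above 0. These are descriptions over the kept cells, each value pair sharing a library and its depth. *Kcnab1* had r = 0.57 with the number of genes read per cell and *Kcna6* r = 0.40. Of the neighbouring genes, *Kcna1* and *Kcna6* had r = 0.08, while *Kcna3* and *Kcna2* had the lowest value of the 28 pairs, -0.12. In V1 L5 *Kcna1* and *Kcna2* had r = 0.74 over 17 cells and in S1 L5 r = -0.34 over 16.

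Within the groups, the genes were only loosely linked to *Hpse*, *Calb2* and *Pvalb*. Because group means were subtracted, these values do not cover a link that runs through the area. In the study, L4 cells of its main types differed by area, S1 being almost wholly of a type named for *Hpse* and V1 more often of one named for *Calb2*. The part of this mix in the area differences was not tested. The largest values were r = -0.25 for *Kcnab1* and *Hpse* and r = 0.22 for *Kcnab1* and *Calb2* and for *Kcna3* and *Hpse*, and with *Pvalb* no gene went beyond 0.17.

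**Figure D4:**
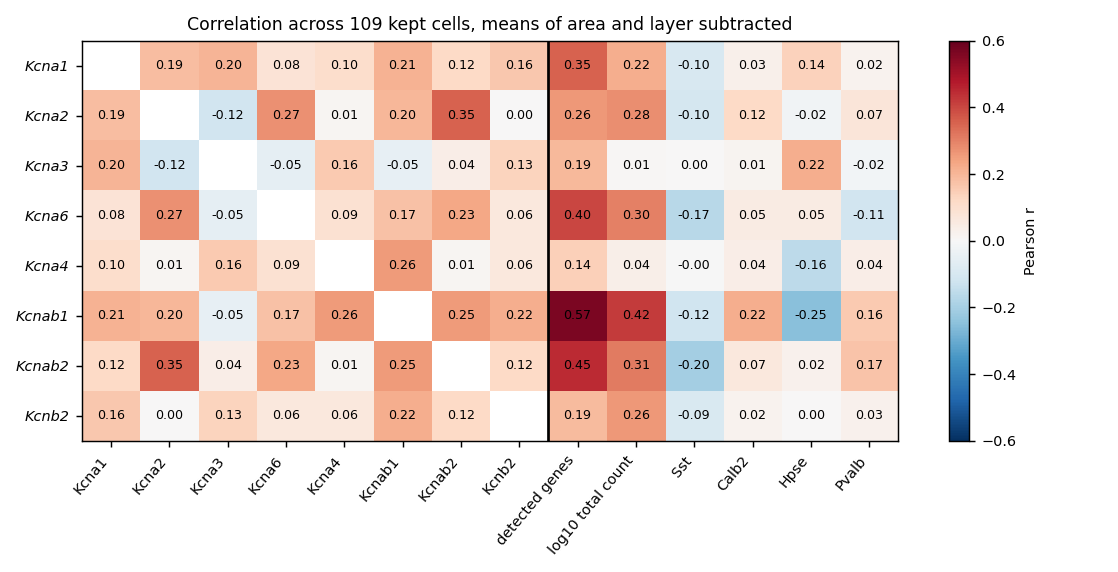
Pearson r across all kept cells, with the means of area and layer subtracted, between pairs of the 8 genes (left of the line) and with the number of genes read, log10 total count, *Sst*, *Calb2*, *Hpse* and *Pvalb* (right of it). The darkest cell is *Kcnab1* with the number of genes read (0.57), and no pair of the 8 genes goes beyond 0.35.

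The genes most like each of the 6 common ones were found among 9992 genes by the same r over the same cells. They are the highest values by choice, and the 99th percentile of r lay between 0.29 (*Kcna3*) and 0.43 (*Kcnab1*). For *Kcna1* they were *Ogdh* (0.50), *Mrpl38* (0.47) and *Gng2* (0.45), for *Kcna2* *Asna1* (0.43), *Acss2* (0.42) and *Gdap1l1* (0.41), and for *Kcna3* *Lrrc73* (0.43), *Evl* (0.42) and *Rai1* (0.40). For *Kcna6* they were *Ahsa1* (0.50), *AI593442* (0.48) and *Bin1* (0.48), for *Kcnab1* *Rab5b* (0.55), *Tppp* (0.53) and *2900011O08Rik* (0.52), and for *Kcnab2* *Rexo2* (0.56), *Pafah1b2* (0.54) and *Ubxn6* (0.52). None of the 8 channel genes was among these.

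In S1 L4, 4 cells lacked an *Sst* read and entered no group as reported, but only the alternative that added them. Their highest *Kcna1* (10.24) and *Kcnab2* (8.68) levels lay above the highest kept S1 L4 cells (10.04 and 8.35), while the values of the other 6 genes lay within the range of the kept cells.

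**Figure D5:**
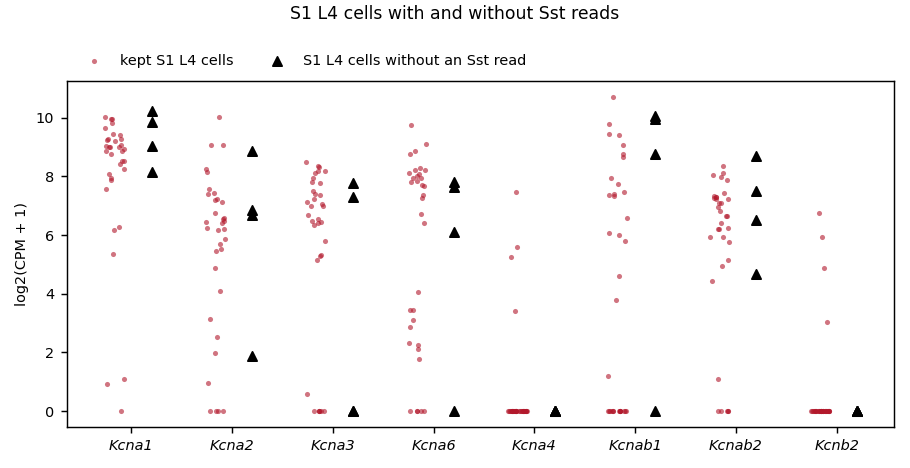
Level of each gene as log2(CPM + 1) in the 34 kept S1 L4 cells (red points) and in the 4 S1 L4 cells with no *Sst* read (black triangles). All 4 triangles of *Kcna1* lie between 8.13 and 10.24, and those of *Kcna4* and *Kcnb2* coincide at 0.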

How the data were processed

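Single cells of SOM-Cre/Ai9 mice, 118 in all, were sequenced as 75-base single-end reads by a Smart-seq2-based protocol. Per the labels and the study's methods, the authors aligned the reads to mm10 with STAR 2.4.2a after bcl2fastq 2.20 and deposited raw read counts of each gene and RPKM values from rpkmforgenes with RefSeq gene models. The tool that made the counts is not given in the sources used here. Entries that share a symbol were summed.

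Counts were turned into log2(CPM + 1), with a pseudocount of 1. RPKM served for levels between genes, as log2(RPKM + 1). Groups came from the labels; as these give no animal, the cells of a group form a single sample. After the filters 109 cells were kept. Recording days (9, in 2 series) were read from the dates. The members, lists and rules were chosen with earlier results of these data known. The named genes are the 8 members, the genes on the lists that met the size rule, and for each common member the 3 genes with the highest r; the list genes given only by how many cells read them were named after their values were seen. Some results under this rule are not reported here. Shares have 95% Clopper-Pearson intervals. Thinning drew 250000 reads per cell with the random seed 1 and left 106 cells.

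The functions were tested on simulated counts. Coordinates and sequences are from GENCODE M21 on GRCm38. Scripts ran in Python 3.11.15 with pandas 2.3.3, NumPy 2.4.6 and SciPy 1.17.1, and figures were drawn with matplotlib 3.10.9. TMM scaling, used as an alternative only, came from edgeR 4.0.16 in R 4.3.3. Other alternatives concerned the scale, the pseudocount, the filters, the depth, the way of averaging, either recording series alone and the omission of single recording days.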

Additional observations from a re-analysis of the deposited data

Results flagged for a closer look

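The 4 S1 L4 cells left out for want of an *Sst* read, from recording days 2, 3, 4 and 5, carried reads of 6 of the 8 channel genes, above the 3 counts that a count of 0 allows. Pooled over these cells, *Kcna1* was at 736.8 CPM and *Kcnab1* at 848.5 CPM, *Kcnab2* at 261.5 CPM, *Kcna6* at 123.7 CPM, *Kcna2* at 104.4 CPM and *Kcna3* at 53.2 CPM. *Kcna1* was read in each of them, at 918, 1212, 519 and 280 CPM, and *Kcnab1* in 3, at 985, 438 and 1056 CPM. *Kcna4* and *Kcnb2* had no read in any of the 4 cells. All 4 also had *Pvalb* reads, 751 CPM in the pool, at 758, 502, 921 and 94 CPM in the order of the days. The study set aside 3 fast-spiking cells without somatostatin reads that mapped to a *Pvalb* type, likely basket cells. Past the other filters, only the 4 cells here had no *Sst* read, so these 3 should be among them. The labels do not say which 3, and the pooled values also take in the remaining cell.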

How the results depend on the processing

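The number of channel genes called by the size rule was 1 of 6 in each comparison as reported and moved with the setting, as did the share of all genes called. Between areas in L4, where 3.2% of all genes were called as reported, it was 0 with RPKM (2.12% of all genes) and with a pseudocount of 10 (0.837%), 2 with at least 4000 genes read per cell (4.94%) and 3 in the second recording series alone (23.03%). In L5 (12.7%) it was 0 after thinning (14.03%) and with a pseudocount of 10 (5.97%). Between layers in V1 (18.5%) it was 0 with a pseudocount of 10 (8.20%) and with pooled CPM (10.1%), and 2 with the mean of the differences within recording days (40.3%). In S1 (15.1%) it was 0 with a pseudocount of 10 (6.98%), 2 with at least 4000 genes (16.4%) and 3 with the mean within days (21.6%), a setting chosen after seeing the data. Leaving out 1 recording day at a time gave 1 to 2 between areas in L4 (3.34 to 6.09% of all genes), 1 to 3 in L5 (19.4 to 22.3%), and between layers 1 to 3 in V1 (19.6 to 33.2%) and 1 to 3 in S1 (16.9 to 25.9%). The number could also stay at 1 while the called gene changed. With pooled CPM it was *Kcna1* in L4 and *Kcna2* in L5 between areas, and *Kcna1* between layers in S1. Among the calls as reported, the one that changed sign was *Kcnab1* between layers in S1, at -0.23 without recording day 4 and between -0.23 and 1.99 when single days were left out. The calls of *Kcna2*, *Kcnab1* in L5 and *Kcnab2* kept their sign in the settings run, from 0.32 to 3.08, from -1.84 to -0.01 and from 0.64 to 1.81. The median r over pairs stayed between 0.09 and 0.15. The cause was not tested. The differences within recording days match cells by day, and cells could not be matched by animal, since the labels name none.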
